A study of Cricetiscus sungorus with 12 samples.

Results

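The melatonin receptor family was followed in the hypothalamus of adult Djungarian hamsters through 3 genes, chosen by their mouse GeneIDs: Gpr50 (GeneID 14765), Mtnr1a (GeneID 17773) and Mtnr1b (GeneID 244701). Of these 3, Gpr50 and Mtnr1a had a value among the 17191 GeneIDs analysed, and Mtnr1b was not analysed here because no value stood under its GeneID. The 12 outbred hamsters formed 3 groups of 4, all sacrificed at about ZT 4, that is 4 h after lights on. LP-NT hamsters remained in long photoperiod with 16 h of light and 8 h of darkness and were normothermic. SP-NT hamsters were acclimated to short photoperiod with 8 h of light and 16 h of darkness and were sampled in normothermia on a day without torpor. SP-HT hamsters were kept in the same short photoperiod and were sampled in spontaneous daily torpor. The labels name no transgene and no drug, and food and water were freely available to all. Both short photoperiod groups carried an implanted transmitter and LP-NT hamsters did not, so that photoperiod, implantation and the time spent in each condition cannot be told apart. By label, LP-NT and SP-NT held 2 females and 2 males each, and SP-HT held 1 female and 3 males.

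Melatonin is released by the pineal gland at night, so that its duration carries the length of the night to the brain. It acts on the G protein-coupled receptors MT1, encoded by Mtnr1a, and MT2, encoded by Mtnr1b. MT1 is dense in the pars tuberalis of the pituitary stalk and in the suprachiasmatic nucleus, the circadian clock of the hypothalamus, whereas the Mtnr1b gene of this species is known to carry stop codons in its coding sequence. Gpr50, the melatonin-related receptor, shares the ancestry of both but does not bind melatonin, can pair with MT1, and is expressed by tanycytes, the glial cells that line the third ventricle. From the pars tuberalis, thyrotropin made of the subunits Cga and Tshb reaches the tanycytes, where the deiodinases Dio2 and Dio3 set the local level of thyroid hormone.

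The libraries held 20204979 to 24186918 expected counts, with group medians of 22089202 in LP-NT, 23941442 in SP-NT and 21832555 counts in SP-HT, so that 1 count was worth 0.0413 to 0.0495 CPM, the counts per 1000000 counts of a library. Of 12 marker genes of hypothalamic neurons 4 could be tied to a GeneID, the neuropeptide genes Trh, Sst, Pomc and Npy. They had group means of 12.2 CPM or more in all 3 groups. None of 5 markers of thalamus and cortex was tied to a GeneID, so that the amount of such tissue was not measured. 1 library stood apart from its label. The hamster labelled SP-NT 19, a male, had 0 to 1 counts in 3 records that held 163 to 1699 counts in the 6 other males, and fold changes of Gpr50 and Mtnr1a that include it are also given without it. Values for SP-HT and SP-NT follow the labels of the samples. In tissue pieces of this kind, fewer cells of a type and less RNA per cell cannot be told apart.

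Gpr50, the orphan member, was measured well in every hamster. In LP-NT it had 17.6 CPM in hamster 01, 17.8 in 02, 16.3 in 03 and 18.2 in 05. SP-NT hamsters had 5.50 CPM in 19, 4.70 in 36, 4.92 in 37 and 4.48 in 38. SP-HT hamsters had 7.44 CPM in 02, 4.63 in 10, 6.81 in 26 and 3.73 in 33. Every short photoperiod hamster was below every LP-NT hamster, with a gap between 7.44 and 16.3 CPM, while SP-HT and SP-NT overlapped. How many of all GeneIDs separate the groups in this way was not counted, so that here and below the separation only describes Gpr50. The group means were 17.5 ± 0.836 CPM in LP-NT, 4.90 ± 0.440 in SP-NT and 5.65 ± 1.76 CPM in SP-HT (SD, n = 4 each).

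**Figure D1:**
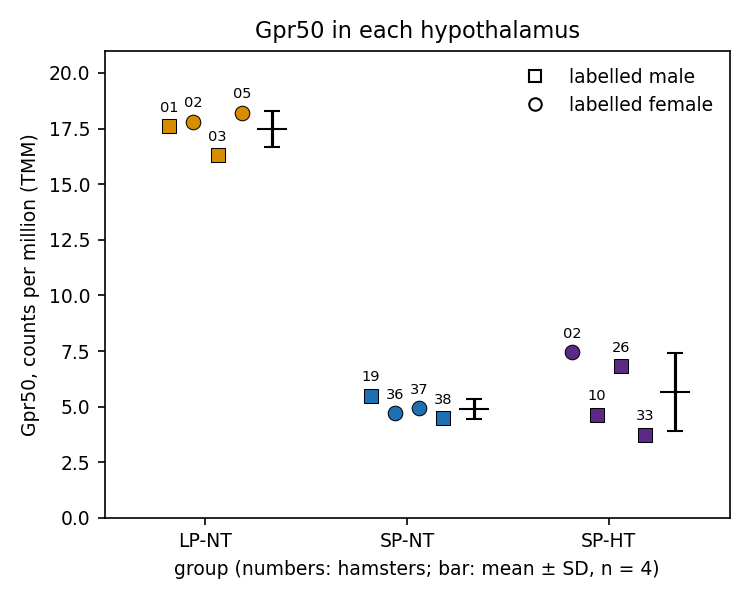
Gpr50 in CPM (TMM-scaled library sizes, linear axis from 0) in each of the 12 hamsters, with the group mean ± SD beside the points, circles for labelled females, squares for labelled males and the hamster number above each point. The 4 LP-NT hamsters sit between 16.3 and 18.2, and the 8 short photoperiod hamsters between 3.73 and 7.44.

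Under short photoperiod in normothermia, Gpr50 fell 3.57-fold from its long photoperiod level, as a ratio of mean CPM. The log2 fold change was −1.84 (SE 0.0978, 95% interval −2.05 to −1.62, adjusted p = 4.21e-05, edgeR quasi-likelihood test), and all 4 SP-NT hamsters were below all LP-NT hamsters. Of 16199 GeneIDs tested in this comparison 6 were called at an adjusted p below 0.05, a share of 0.0370%, with 5 lower and 1 higher in SP-NT. Gpr50 had the smallest p of the 16199, and ranked 45 by the size of its fitted fold change. Without SP-NT 19 the log2 fold change of Gpr50 was −1.90, and it stayed past the threshold without any single hamster. Summed over the group, 1558 counts stood behind LP-NT and 472 behind SP-NT, and their ratio per total count was 0.283 with an exact 95% interval of 0.255 to 0.314 that covers counting error only.

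**Figure D2:**
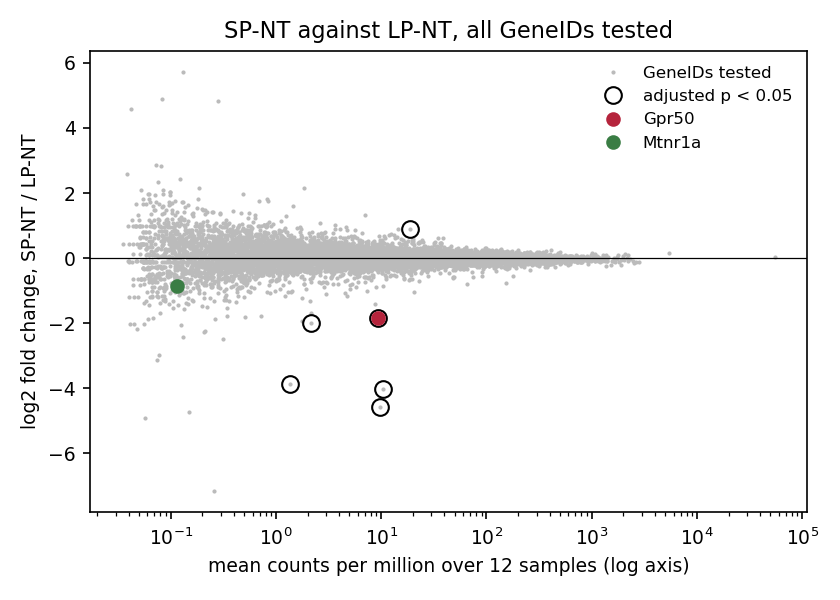
Log2 fold change of SP-NT against LP-NT (vertical axis) against the mean CPM over the 12 hamsters (horizontal log axis) for the 16199 GeneIDs tested, with a ring around the 6 GeneIDs called at an adjusted p below 0.05. Gpr50, at −1.84, is 1 of the 6, and Cga, a GeneID of like abundance that is not marked by name, lies lower at −4.58. Mtnr1a, at −0.85, lies within the wide scatter of GeneIDs with few counts.

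Gpr50 was also lower in SP-HT than in LP-NT, by 3.10-fold in mean CPM. The log2 fold change was −1.62 (SE 0.191, 95% interval −2.04 to −1.20, edgeR adjusted p = 0.00768), in a comparison that called 221 of 16157 GeneIDs, or 1.37%. Again the 4 SP-HT hamsters were below all LP-NT hamsters. This comparison and the one of SP-NT use the same 4 LP-NT libraries, so that they are not separate evidence.

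With both short photoperiod groups together, Gpr50 was lower in 8 of 8 hamsters than in any LP-NT hamster. Its log2 fold change was −1.72 (SE 0.142, 95% interval −2.03 to −1.42, edgeR adjusted p = 5.67e-05), where 58 of 16380 GeneIDs were called, or 0.354%. Only 2 GeneIDs had a smaller p. Without SP-NT 19 the log2 fold change was −1.75. On the TPM scale, which divides by transcript length, the difference in means was −11.5 TPM (exact permutation test, two-sided p = 0.00404, the smallest these group sizes allow, and 0.0646 after adjustment over 16 such tests).

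Between torpor and normothermia no difference in Gpr50 was called. The log2 fold change of SP-HT against SP-NT was 0.21 (SE 0.205, 95% interval −0.24 to 0.66, edgeR adjusted p = 0.636), while 389 of 16195 GeneIDs were called in that comparison, or 2.40%. Of the SP-HT hamsters 2 were above and 1 was below all SP-NT hamsters. The interval leaves room for a moderate change in either direction, and without a single hamster the value lay between 0.05 and 0.36, with the lowest value in the absence of SP-HT 02 and the highest in that of SP-HT 33. Without SP-NT 19 it was 0.27.

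The coefficient of variation of Gpr50 CPM was 4.78% in LP-NT and 8.97% in SP-NT, against 5.07% and 9.20% from counting error alone. In SP-HT it was 31.2%, against 9.06% from counting error. The chi-square of the counts per degree of freedom was 0.851 in LP-NT, 1.03 in SP-NT but 11.3 in SP-HT. In SP-HT the counts ran from 76 in hamster 33 (exact 95% Poisson interval 59.9 to 95.1) to 170 in hamster 02 (145.4 to 197.6). Whether the spread itself differed between the groups was not tested.

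No difference in Gpr50 between the sexes was called. LP-NT females had 17.8 and 18.2 CPM, just above the males at 16.3 and 17.6. SP-NT females had 4.70 and 4.92 CPM, between the labelled males at 4.48 in hamster 38 and 5.50 in hamster 19. Hamster 19 is the library that stood apart from its label, and without it the remaining male was below both females. In SP-HT the only female had 7.44 CPM, above the 3 males at 3.73 to 6.81. Males against females, with group in the model, gave a log2 fold change of −0.17 (95% interval −0.48 to 0.13, edgeR adjusted p = 0.860), and without SP-NT 19 it was −0.23. It was nearest to 0 without SP-HT 02, the only SP-HT female, at −0.03, and it was −0.11 without SP-HT 33. The interaction of photoperiod with sex in LP-NT and SP-NT was 0.14 (95% interval −0.34 to 0.62, edgeR adjusted p = 0.919). Without SP-NT 19 it was −0.01, a value that rests on SP-NT 38 as the only SP-NT male. Neither contrast called any GeneID with edgeR, a share of 0%, with 748 and 792 GeneIDs at an unadjusted p below 0.05, whereas DESeq2 called 13 and 4. Both contrasts hold SP-NT 19 as a male. Without it, edgeR called 9 of 16324 GeneIDs for males against females, and Gpr50 was not called (edgeR adjusted p = 0.951).

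Gpr50 rested on 3 assembled transcripts of 1 assembly gene, and no other GeneID drew on the same assembly component. Its effective length, the number of positions from which a fragment can start, was 2904 to 2984 bases over the 12 hamsters and differed by 23.7 bases between the means of SP-NT and LP-NT (exact permutation test, two-sided p = 0.257). Mean TPM was 16.4 ± 0.893 in LP-NT, 4.64 ± 0.423 in SP-NT and 5.16 ± 1.57 TPM in SP-HT (SD, n = 4 each). Of all GeneIDs 47.5% had a lower mean TPM than Gpr50 in LP-NT, against 27.3% in SP-NT and 29.8% in SP-HT.

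Mtnr1a, the receptor that binds melatonin, was near the limit of detection. LP-NT hamsters had 8 counts in 01, 2 in 02, 1 in 03 and 6 in 05. SP-NT hamsters had 1 count in 19, 3 in 36, 4 in 37 and 2 in 38. SP-HT hamsters had 2 counts in 02, 0 in 10 and 1 each in 26 and 33. The groups overlapped in every comparison, and in LP-NT hamsters 01 and 05 held most of the 17 counts.

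**Figure D3:**
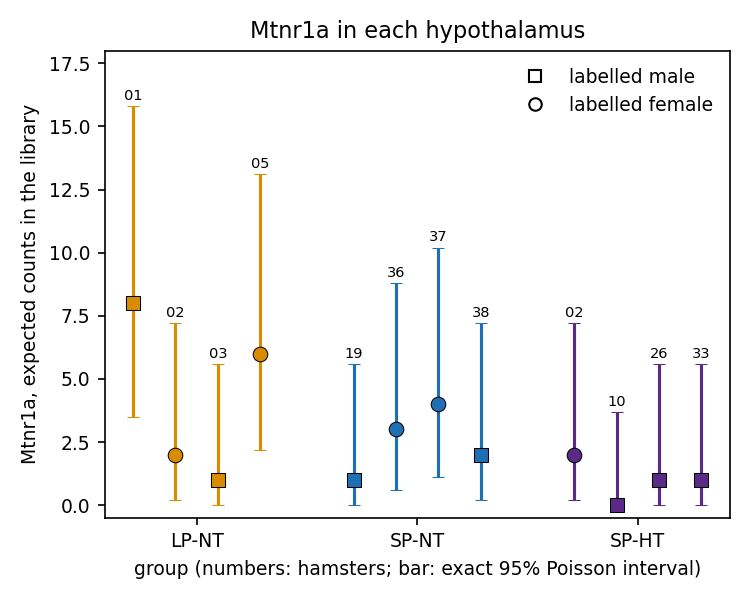
Expected counts of Mtnr1a in each of the 12 libraries (linear axis), with the exact 95% Poisson interval of each count as a bar, circles for labelled females and squares for labelled males. The highest count is 8 in LP-NT 01, and the intervals of most hamsters overlap across all 3 groups.

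Summed over a group, Mtnr1a had 17 counts in LP-NT, 10 in SP-NT and 4 counts in SP-HT. Scaled to the group totals these were 0.192 CPM (95% interval 0.112 to 0.307), 0.105 (0.0505 to 0.194) and 0.0460 (0.0125 to 0.118). The ratio per total count was 0.549 for SP-NT over LP-NT (0.225 to 1.27), 0.240 for SP-HT over LP-NT (0.0587 to 0.736) and 0.401 for both short photoperiod groups over LP-NT (0.183 to 0.865). These exact intervals cover counting error only, and no difference between hamsters enters them. With the spread between hamsters in the model, no comparison called Mtnr1a.

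The log2 fold change of Mtnr1a was −0.85 for SP-NT against LP-NT (95% interval −2.35 to 0.66, edgeR adjusted p = 0.913), −0.59 without SP-NT 19 and −0.36 without LP-NT 01. It was −1.07 for SP-HT against SP-NT (−2.73 to 0.60, edgeR adjusted p = 0.492), −1.32 without SP-NT 19 and −0.70 without SP-HT 10. For SP-HT against LP-NT it was −1.90 (−3.72 to −0.08), with an unadjusted p of 0.0421 and an edgeR adjusted p of 0.306. Both short photoperiod groups against LP-NT gave −1.37 (−2.67 to −0.07), with an unadjusted p of 0.0400 and an edgeR adjusted p of 0.409. At an unadjusted p below 0.05 stood 15.1% and 11.5% of all GeneIDs tested in these last 2 comparisons. The last value was −0.89 without LP-NT 01 and −1.24 without SP-NT 19. A difference in Mtnr1a was thus not detectable at this depth, and the intervals reach from near or above 0 to beyond the fall of Gpr50.

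**Figure D4:**
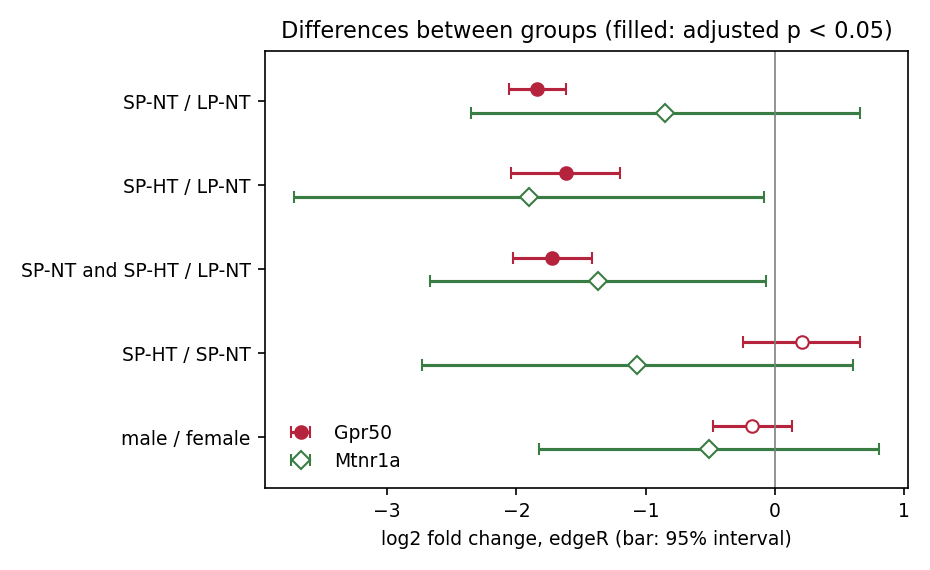
Log2 fold changes of Gpr50 (circles) and Mtnr1a (diamonds) in 5 contrasts, with 95% intervals from edgeR and filled symbols where the adjusted p was below 0.05. Gpr50 lies between −1.84 and −1.62 in the 3 contrasts with LP-NT and near 0 in the others, and each interval of Mtnr1a is several times wider than that of Gpr50.

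Mtnr1a rested on 3 assembled transcripts of 2 assembly genes in 1 component, which no other GeneID shared. Its effective length varied from 337 to 567 bases between libraries, so that a level per length carries that variation too. Mean TPM was 1.25 in LP-NT, 0.560 in SP-NT and 0.305 TPM in SP-HT. Per length, Gpr50 was 13.0-fold above Mtnr1a in LP-NT, 8.29-fold in SP-NT and 16.9-fold in SP-HT, as ratios of mean TPM. The sexes overlapped in LP-NT, where males had 0.0455 and 0.362 CPM of Mtnr1a and females 0.0868 and 0.274. In SP-NT the females, at 0.125 and 0.173 CPM, were above the males, at 0.0411 in hamster 19 and 0.0807 in hamster 38. Over all groups males against females gave a log2 fold change of −0.51 (95% interval −1.83 to 0.81, edgeR adjusted p = 0.891). It was −0.34 without SP-NT 19 and ran from −0.18 without LP-NT 03 to −1.40 without LP-NT 01, with −0.86 without LP-NT 02, and no value passed the threshold.

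The genes whose pattern was most like that of Gpr50 were sought among 13939 GeneIDs with a mean of at least 1 CPM. The likeness was Pearson's r of log2 CPM over the 12 hamsters, which all share the libraries and the gap between photoperiods, so that r is a description only. The closest on this scale was Cga, the alpha subunit of thyrotropin, with r = 0.963, followed by Lrat, which esterifies retinol in tanycytes, with r = 0.959. A pair of records, GeneIDs 22094 and 60531, followed with r = 0.910 and 0.901. One of them is Tshb and the other Npvf, a neuropeptide of the dorsomedial hypothalamus, but the values at hand did not tell which is which. The least like Gpr50 were GeneIDs 381062 and 11937, with r = −0.941 and −0.918. By Spearman's rho Cga had 0.839 and the closest GeneID 0.874, and after a variance stabilizing transformation Cga had r = 0.958 and the closest GeneID 0.968. Within the 8 short photoperiod hamsters r was 0.586 for Cga, 0.521 for Lrat, and 0.254 and −0.419 for the pair.

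Cga fell further than Gpr50 and varied more. LP-NT hamsters had 45.5 CPM in 01, 20.9 in 02, 16.2 in 03 and 26.7 in 05, and every short photoperiod hamster had 0.343 to 1.93. Gpr50 was nearly flat over these 4 hamsters, at 16.3 to 18.2 CPM, while Cga differed 2.74-fold. The order of hamsters by Cga was that of Gpr50 in SP-HT, but not in the other groups, and in SP-NT hamster 38 was highest in Cga and lowest in Gpr50. In LP-NT and SP-NT, however, Gpr50 varied about as much as counting error gives, so that its order there carries little.

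Lrat had 4.30, 4.38, 3.37 and 4.98 CPM in LP-NT 01, 02, 03 and 05, and 0.847 to 1.19 CPM in SP-NT. In both normothermic groups its order over the hamsters was the same as that of Gpr50. There the chi-square per degree of freedom was 0.851 and 1.03 for Gpr50 in LP-NT and SP-NT. For Lrat it was 2.23 and 0.492. The order of Gpr50 in these groups is thus not told apart from counting error, and whether Gpr50 and Lrat share a course there was not tested. In torpor the orders differed, and hamster 26 had 1.88 CPM of Lrat and the others 0.916 to 1.03. The mean of Lrat was 4.26 ± 0.665 CPM in LP-NT and 1.06 ± 0.149 in SP-NT (SD, n = 4 each), a fall with an edgeR adjusted p of 0.00239.

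**Figure D5:**
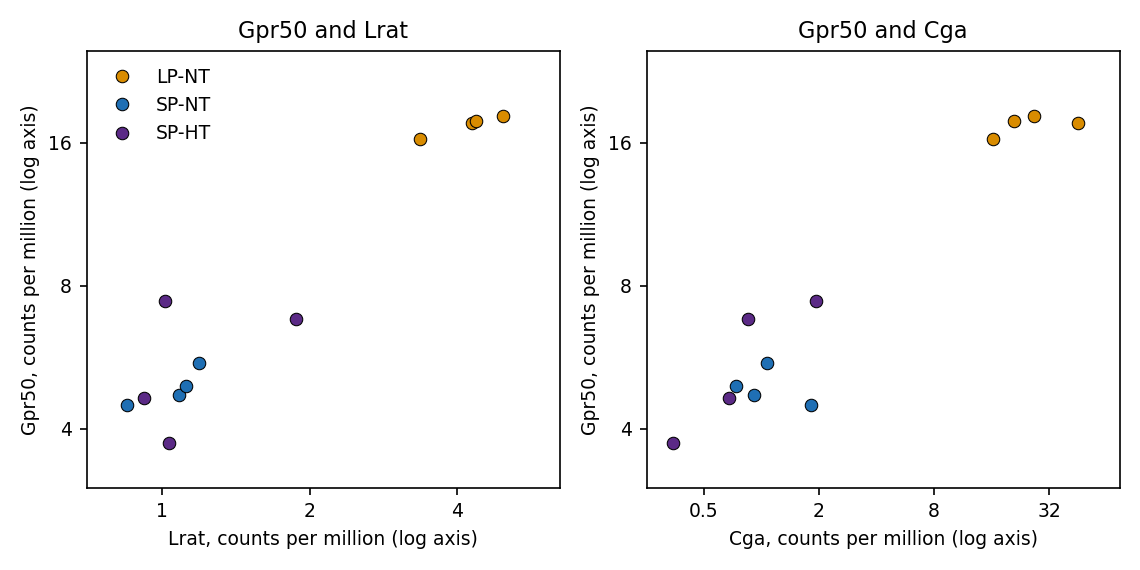
Gpr50 against Lrat (left) and against Cga (right), each in CPM on log axes, with 1 point per hamster and the group by colour. The 4 LP-NT hamsters form a cluster at the upper right in both panels, and the 8 short photoperiod hamsters spread from 3.73 to 7.44 CPM of Gpr50 below it.

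The rest of the melatonin pathway was looked up in lists of genes, of which only those that could be tied to a GeneID are named. Of 11 melatonin targets of the pars tuberalis 3 were measured by name, and 1 of them fell in SP-NT against LP-NT, namely Cga (log2 fold change −4.58, edgeR adjusted p = 0.00111), where 0.0370% of all GeneIDs were called. The clock genes Cry1 and Per1 gave 0.07 and 0.27 (edgeR adjusted p = 0.927 and 0.913). The median log2 fold change of the 3 was 0.07, against −0.0024 over all GeneIDs. Both records of the pair that holds Tshb fell as well, with log2 fold changes of −3.86 and −4.02 (edgeR adjusted p = 0.00576 and 0.00111). The study had chosen several of these genes on the same samples, so that their falls are not independent evidence.

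Of 13 photoperiod genes of tanycytes, the cells in which Gpr50 is expressed, 6 were named. In SP-NT against LP-NT 1 of the 6 fell, namely Lrat, against 0.0370% of all GeneIDs called, and the median log2 fold change was −0.23, against −0.0024 over all GeneIDs. Names came through genes that the study itself had picked, so that these 6 are no neutral sample of the list. Dio2, which activates thyroid hormone, had 7.15 ± 1.31 CPM in LP-NT, 5.53 ± 0.644 in SP-NT and 5.12 ± 0.674 CPM in SP-HT (SD, n = 4 each; edgeR adjusted p of 0.913 for SP-NT and 0.207 for SP-HT against LP-NT). Dio3, which inactivates the hormone, had 1 count in the 4 LP-NT libraries together, 4 to 16 counts in each SP-NT library and 5 to 11 in each SP-HT library. Dio3 rose in SP-HT against LP-NT (log2 fold change 4.46, edgeR adjusted p = 0.0263). It also rose with both short photoperiod groups together (4.65, edgeR adjusted p = 0.0166). In SP-NT alone it did not pass (edgeR adjusted p = 0.18), though its log2 fold change there was no smaller, at 4.83. The thyrotropin receptor Tshr gave a log2 fold change of −0.14 in SP-NT against LP-NT (edgeR adjusted p = 0.930).

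Vim, an intermediate filament of tanycytes, also had its highest mean under long photoperiod. It had 112.7 ± 14 CPM in LP-NT, 90.0 ± 23.4 in SP-NT and 74.1 ± 9.28 CPM in SP-HT (SD, n = 4 each). Its log2 fold change was −0.60 for SP-HT against LP-NT (edgeR adjusted p = 0.0293) and −0.32 for SP-NT against LP-NT (edgeR adjusted p = 0.913). Pomc, of arcuate neurons, had a log2 fold change of −1.44 in SP-HT against LP-NT (edgeR adjusted p = 0.0128) and of −1.05 in SP-NT against LP-NT (edgeR adjusted p = 0.643). With both short photoperiod groups together Pomc had −1.24 (edgeR adjusted p = 0.00905). For SP-HT against SP-NT it had −0.41 (edgeR adjusted p = 0.186). The part that the amount of tanycytes or of pars tuberalis in the tissue had in the Gpr50 difference was not tested. In torpor against normothermia 0 of the 6 tanycyte genes and 0 of the 3 pars tuberalis genes passed, where 2.40% of all GeneIDs did, so that counts this small say nothing about the lists. Of 7 binding partners of Gpr50 the cell adhesion molecule Ncam1 alone was named, at a log2 fold change of 0.04 in SP-NT against LP-NT (edgeR adjusted p = 0.970).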

How the data were processed

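Total RNA of 12 hypothalami was sequenced as mRNA. The authors pooled all reads into a de novo assembly (Trinity), assigned transcripts to the mouse GeneID of the protein they matched best, mapped the reads back with Bowtie 1.3.0 and quantified them with RSEM 1.3.1 (versions per the submitters' processing notes). The deposited values are expected counts, TPM and effective lengths per GeneID. Best hits can join paralogs under 1 GeneID.

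Expected counts were rounded, and GeneIDs with a sum below 10 over the samples of a fit were left out. Comparisons used edgeR 4.0.16 (R 4.3.3; TMM, quasi-likelihood test, Benjamini-Hochberg over all GeneIDs tested, threshold 0.05). Alternatives used DESeq2 1.42.0 and limma 3.58.1, other filters, effective lengths, sex, and leaving out each hamster. Counts were also simulated for SP-NT against LP-NT over 16120 GeneIDs. Known changes were put into more GeneIDs than were called in the data, all with far more counts than Mtnr1a. Of these, edgeR recovered 98.5% of 4-fold, 92.5% of 2-fold and 65.7% of 1.5-fold changes, with 10 false calls. The simulation does not cover GeneIDs with as few counts as Mtnr1a. CPM used TMM-scaled totals. Likeness used log2 CPM with a prior count of 2. Single values were compared by exact permutation tests. Hamsters are separate animals.

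The files pair no names with GeneIDs. Members follow their GeneIDs. Other names were tied to a GeneID where values that the study printed matched those computed with DESeq2 and effective lengths. For the genes that the study had preselected, fold change and adjusted p of both comparisons were used, and 59 of 61 matched. Cga, Lrat and the pair that holds Tshb were tied by their rounded photoperiod fold change alone, among GeneIDs already called with a large change. They could be named only because they are extreme in these data. The sizes of all these genes in the comparisons used for the match are thus no independent evidence. For SP-NT against LP-NT the match, sign included, was made with the samples labelled SP-NT. For all 59 the printed sign of the torpor comparison was opposite to that from the sample labels. The labels were kept, so that a value of SP-HT against SP-NT is above 0 where the libraries labelled SP-HT were higher. Of the lists of genes for melatonin synthesis (8 genes) and receptor coupling (23 genes) and of markers of tanycytes (12 genes) none was tied to a GeneID, so that these lists gave no result. Named list genes were those past the threshold and those with the largest and smallest change per list. The values of 1 list gene are not reported here. Members and lists were chosen with earlier results of these data known. Columns of the transcript lists served to count transcripts, and no sequence was used here.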

Additional observations from a re-analysis of the deposited data

Results flagged for a closer look

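Among 42 sets of 4 values, 1 set per gene and group, 2 held a value whose gap to its neighbour took more of the range than Dixon's 95% critical value allows, and chance gives about 1 in 20. Lrat, the tanycyte gene second in likeness to Gpr50, had 1.88 CPM in SP-HT 26, a gap of 0.882 of the range above the other SP-HT hamsters. Dio3 had 0.0453 CPM in LP-NT 01, which is 1 count, while the other LP-NT hamsters had 0. No value of Gpr50 or Mtnr1a stood out in this way.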

How the results depend on the processing

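The log2 fold change of Gpr50 kept its direction and its side of the threshold under each of the alternatives tried, except that photoperiod by sex, 0.14 and not called, was −0.01 without SP-NT 19, a setting chosen after seeing the data. Over the other tools, scalings, filters and covariates it ranged from −1.85 to −1.82 for SP-NT against LP-NT and from −1.67 to −1.56 for SP-HT against LP-NT. Leaving out 1 hamster gave −1.90 to −1.79, −1.77 to −1.47 and, for both short photoperiod groups, −1.81 to −1.65. Mtnr1a was called under none of them, and filterByExpr left it out of the tests. Its value for SP-NT against LP-NT ran from −1.18 to −0.11 over the settings and from −1.17 to −0.36 without 1 hamster, −0.36 being that without LP-NT 01.

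The number of GeneIDs called moved far more. For SP-NT against LP-NT it was 6, and 33 with DESeq2, with or without independent filtering, and 32 with DESeq2 and effective lengths, an alternative chosen after seeing the data. For SP-HT against SP-NT it was 389, and 1017, 979 and 759 with the same 3 settings, 147 with effective lengths in edgeR and 242 with sex. For SP-HT against LP-NT it was 221, and 706, 672 and 623 with the same settings, 103 with effective lengths, 416 with limma voom and 612 with all 12 samples in 1 fit. For both short photoperiod groups it was 58, and 279 and 263 with DESeq2 without and with lengths. For sex these were 0, 13 and 11, and for photoperiod by sex 0, 4 and 3. Without 1 hamster the counts ran from 5 to 8, 104 to 318, 55 to 200, 30 to 50 and, for sex, 0 to 9. The count moved by over 1.5 times without any hamster but SP-HT 33 in torpor against normothermia (lowest without SP-NT 38), without any but LP-NT 01 for SP-HT against LP-NT (lowest without SP-HT 26), without LP-NT 03 (lowest), SP-NT 36 or SP-NT 37 for both short photoperiod groups, and without SP-NT 19 (9) or SP-NT 38 (3) for sex. The cause was not tested. With Spearman's rho, 2 of the 5 GeneIDs most like Gpr50 stayed among the first 5. No paired analysis was possible because each library came from a separate hamster. With 31 counts in 12 libraries, depth limits every statement on Mtnr1a.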
